A study of Mus musculus with 3 samples.

Results

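The genes described here are the fibroblast growth factor (FGF) ligands, their receptors and the inhibitors that these receptors induce. They were taken by symbol from a fixed list, and all 35 members were found among the 23284 genes listed in each of 3 RNA-seq libraries. The members comprised 18 secreted ligands, 4 intracellular FGF homologues, 4 receptor tyrosine kinases, the receptor-like gene Fgfrl1, 4 Sprouty genes, 3 Spred genes and the phosphatase gene Dusp6.

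Each library was made from cells sorted from the digits of C57/bl6 mouse embryos, with 1 library per population. Sox9+ cells were GFP-positive digit cells of Sox9-eGFP/+ embryos at E13.5 (E gives the embryonic day), and Sox9 is the transcription factor that specifies cartilage. Lgr5+ cells were GFP-positive forelimb digit cells of Lgr5-eGFPCreERT2/+ embryos at E14.5, labelled as interzone, the cell layer in which a joint will form. Their GFP-negative counterparts, of the same genotype and day, made up the Lgr5- library and were labelled as non-interzone. Both Lgr5 populations therefore carried the GFP-CreERT2 allele, and the Sox9+ population did not. The sort was by reporter and not by position, the sources used here name neither the limb of the Sox9+ cells nor how many embryos were pooled, and stage, reporter line and any difference in limb cannot be told apart in comparisons with the Sox9+ library. No group had a replicate, so no value below has an error, no test was possible, and each difference is one between libraries.

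FGFs are secreted proteins that bind receptor tyrosine kinases together with heparan sulfate chains on the cell surface, and the bound receptor signals through Ras and the kinase ERK. ERK activity induces its own brakes, among them the Sprouty and Spred proteins, which act on the Ras/ERK relay, and Dusp6, which removes phosphate from ERK. In the limb, FGFs from the epithelial ridge at the tip of the bud drive outgrowth, while Fgf9 and Fgf18 act on cartilage and its surrounding perichondrium.

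Values are in FPKM, fragments scaled to transcript length and to the mapped total of the library, which can be compared between genes because of the scaling to length. A fold is the ratio of FPKM + 1, which understates differences of low genes. A comparison counted a gene as measured where the higher of its values was 1 FPKM or more, and as different where the fold was 2 or more. The libraries were similar in completeness, with 11924 to 12002 genes at 1 FPKM or more. The ribosomal RNA gene Rn45s held 1.86% of the summed FPKM in Lgr5+, against 6.43% in Sox9+ and 6.13% in Lgr5-. Lgr5, the sorting gene, was at 26.8 FPKM in Lgr5+, 1.36 FPKM in Lgr5- and 3.48 FPKM in Sox9+, whereas Sox9 was at 254.7 FPKM in Sox9+ and higher, at 332 FPKM, in Lgr5+. The interzone gene Gdf5 was at 614.8 FPKM in Lgr5+, 71.7 FPKM in Lgr5- and 59.9 FPKM in Sox9+, and 12 interzone genes summed to 1707, 495.6 and 622.7 FPKM in that order. Summed over 14 cartilage genes, the FPKM were 9800 in Sox9+, 4287 in Lgr5+ and 2536 in Lgr5-. Of other cell types, 14 muscle genes summed to 113.3 FPKM in Lgr5+ against 30.1 in Sox9+ and 30.6 in Lgr5-, 12 epidermal genes to 64.2 FPKM in Sox9+, 58.4 in Lgr5+ and 25.6 in Lgr5-, and 10 red blood cell genes to 3979 FPKM in Lgr5- against 141.9 in Sox9+ and 151.4 in Lgr5+. Of these, Myf6 and Pax7 of muscle were listed at 0 in Sox9+, and Hbb-bh1 of red blood cells in Lgr5+. The sum of 10 macrophage genes was 83.9 FPKM in Lgr5+, 44.4 in Lgr5- and 11.8 in Sox9+, with Fcgr1 listed at 0 in Sox9+. The sums of 10 endothelial genes (13.6 to 25.0 FPKM) and 7 Schwann cell genes (14.6 to 23.7 FPKM) were low in each library. In such bulk samples fewer cells of a type and less RNA per cell cannot be told apart.

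Of the 35 members, 22 reached 1 FPKM in at least 1 library. The other 13 did not, namely Fgf1, Fgf4, Fgf6, Fgf8, Fgf11, Fgf14, Fgf15, Fgf17, Fgf20, Fgf22, Fgf23, Spred3 and Spry3, and the highest value among them was 0.92 FPKM, of Fgf22 in Sox9+. Fgf4, Fgf6 and Spry3 were listed at 0 in each library. The members at 1 FPKM or more numbered 20 in Sox9+ and 18 in each of the Lgr5+ and Lgr5- libraries.

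The 250 bases before the start site are shown for 4 members that stand for the patterns below. Fgf18 is the most abundant ligand and was highest in Lgr5+, Dusp6 had the lowest ratio of both E14.5 libraries to Sox9+, Fgf10 was highest in Lgr5-, and Spry2 was lowest in Lgr5-. The sequences are from RefSeq (GRCm38.p6), run 5′ to 3′ on the strand of the gene and stop before the RefSeq start site. Capitals mark CGGAA or its complement TTCCG, the short core of sites for ETS factors, which act at the end of the ERK relay. In the GENCODE M21 annotation Fgf10 begins further upstream, at 118669791, so the Fgf10 window lies within that gene span, though in none of its exons.
Fgf18 (chr11:33147401-33147650, minus strand): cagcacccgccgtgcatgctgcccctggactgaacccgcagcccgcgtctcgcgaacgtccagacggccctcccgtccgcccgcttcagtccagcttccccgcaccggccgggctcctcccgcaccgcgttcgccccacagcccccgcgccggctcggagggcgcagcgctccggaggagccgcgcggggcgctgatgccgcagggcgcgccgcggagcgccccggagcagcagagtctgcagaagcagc
Dusp6 (chr10:99262981-99263230, plus strand): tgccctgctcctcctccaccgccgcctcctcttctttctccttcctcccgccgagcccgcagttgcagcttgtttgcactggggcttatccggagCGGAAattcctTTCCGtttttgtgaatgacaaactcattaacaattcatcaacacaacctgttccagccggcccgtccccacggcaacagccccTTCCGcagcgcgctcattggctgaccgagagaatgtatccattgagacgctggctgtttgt
Fgf10 (chr13:118714449-118714698, plus strand): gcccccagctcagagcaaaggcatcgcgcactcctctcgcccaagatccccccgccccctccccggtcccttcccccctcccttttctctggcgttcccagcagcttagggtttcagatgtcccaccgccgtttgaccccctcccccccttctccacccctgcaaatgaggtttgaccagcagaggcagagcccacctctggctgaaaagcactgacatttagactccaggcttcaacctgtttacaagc
Spry2 (chr14:105896820-105897069, minus strand): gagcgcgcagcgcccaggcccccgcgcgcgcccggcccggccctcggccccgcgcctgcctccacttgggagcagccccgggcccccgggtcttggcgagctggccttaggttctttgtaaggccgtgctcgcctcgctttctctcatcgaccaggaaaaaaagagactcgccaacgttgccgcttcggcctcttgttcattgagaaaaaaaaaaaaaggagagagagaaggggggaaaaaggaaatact
The Dusp6 window held 3 such matches, at 155 to 151, 144 to 140 and 61 to 57 bases before the start, and the other windows shown held none. The table held 33 windows for 26 of the 35 members. On either strand, CGGAA was found in 10 of these 33 windows and in 25.2% of 32851 windows over all genes. The longer ETS string CCGGAAG, which contains CGGAA, was found in 1 member window, that of Fgfrl1, and in 6.91% of all. The AP-1 string TGANTCA was found in 2 member windows, those of Fgf12 and Fgf13, and in 6.75% of all, and the SOX string AACAATG in 1, that of Fgf23, and in 3.29% of all. Base composition differed among the windows shown, with 77.2% G or C and 37 CG pairs for Fgf18, 62.4% and 23 for Spry2, 61.2% and 8 for Fgf10, and 56.4% and 16 for Dusp6. A match of letters is a description of the sequence and not a bound site.

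The secreted ligand with the highest FPKM in each library was Fgf18, which controls growth and maturation of cartilage and bone (on the minus strand of chromosome 11, from 33116970 to 33147400). It stood at 15.1 FPKM in Sox9+, 48.4 FPKM in Lgr5+ and 25.3 FPKM in Lgr5-. The Lgr5+ value was 3.07-fold above Sox9+ and 1.88-fold above Lgr5-, and Lgr5- was 1.63-fold above Sox9+. Among genes measured in the comparison of Lgr5+ with Sox9+, 1.3% had a more positive ratio than Fgf18. Its share of the summed FPKM of the 15 paracrine ligands was 82.2% in Lgr5+, against 47.3% in Sox9+ and 52% in Lgr5-. These shares do not depend on how the libraries were scaled to each other. The interzone, muscle and macrophage sums given above were likewise highest in Lgr5+. Of 8 tendon genes, 6 were at least 2-fold above Sox9+ and 5 above Lgr5- in Lgr5+, with Scx at 42.5, 194.5 and 80.6 FPKM and Kera at 1.34, 80.6 and 14.52 FPKM in Sox9+, Lgr5+ and Lgr5-. The tendon gene Egr1 went the other way, at 1221, 603.2 and 669.5 FPKM, 2.02-fold lower in Lgr5+ than in Sox9+. With Egr1 included, the 8 genes summed to 1345, 1235 and 901.1 FPKM in the same library order, highest in Sox9+. The part of these tissues, or of perichondrium, in the Fgf18 values was not tested.

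Fgf9, a ligand that acts on cartilage growth in the limb, was also lowest in Sox9+ but highest in Lgr5-. It stood at 0.5 FPKM in Sox9+, 1.7 FPKM in Lgr5+ and 2.95 FPKM in Lgr5-. The Lgr5- value was 2.63-fold above Sox9+, and Lgr5+ lay within 2-fold of both. The ratio of Lgr5+ to Sox9+ passed 2-fold when 0.1 FPKM was added in place of 1 (log2 ratio 1.58) and after rescaling to TPM (1.18). Fgf18 thus exceeded Fgf9 by a ratio of FPKM of 30.2 in Sox9+, 28.4 in Lgr5+ and 8.57 in Lgr5-.

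Fgf10 and Fgf2 showed another order, lowest in Lgr5+ and highest in Lgr5-. Fgf10, which starts and sustains limb outgrowth (on the plus strand of chromosome 13, from 118714699 to 118792573), stood at 2.45 FPKM in Sox9+, 2.21 FPKM in Lgr5+ and 6 FPKM in Lgr5-. It was 2.18-fold lower in Lgr5+ than in Lgr5-, and 2.03-fold higher in Lgr5- than in Sox9+. Fgf2, a ligand stored in matrix and basement membrane, followed the same order with 4.52, 4.19 and 9.61 FPKM in Sox9+, Lgr5+ and Lgr5-. The Lgr5+ value was 2.04-fold below Lgr5-, and Lgr5- was 1.92-fold above Sox9+. The sums of red blood cell genes and of endothelial genes were also highest in Lgr5-. The endothelial sum was 13.6, 17.9 and 25.0 FPKM in Sox9+, Lgr5+ and Lgr5-, with no gene of that list 2-fold different in any pair. The part of either cell type in the Fgf2 and Fgf10 values was not tested. Fgf2 and Fgf10 hardly differed between Lgr5+ and Sox9+, where the sign of both ratios turned when the libraries were rescaled to TPM. Fgf2 shares 640 exonic bases with Nudt6 on the opposite strand (5.62, 3.97 and 6.69 FPKM in the same library order), and because the kit does not mark strand, reads from the shared bases cannot be assigned to either gene.

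Fgf7, which activates the epithelial form of Fgfr2, stood at 3.95 FPKM in Sox9+, 1.35 FPKM in Lgr5+ and 2.63 FPKM in Lgr5-. It was 2.11-fold lower in Lgr5+ than in Sox9+ and within 2-fold in the other pairs. Fgf5 reached 1.34 FPKM in Sox9+ against 0.17 FPKM in Lgr5+ and 0.07 FPKM in Lgr5-. Its ratio of Lgr5+ to Sox9+ lay exactly on the 2-fold threshold. Fgf3 (1.09, 0.14 and 0.34 FPKM in Sox9+, Lgr5+ and Lgr5-) and Fgf16 (1.08, 0.23 and 0.84 FPKM) were close to the minimum of 1 FPKM in Sox9+ and below it elsewhere.

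Fgf4, Fgf8 and Fgf17, ligands of the apical ectodermal ridge, the signalling epithelium of the limb bud tip, stayed under 1 FPKM. Fgf8 was at 0.32 FPKM in Sox9+ and listed at 0 in both Lgr5 libraries, Fgf4 was listed at 0 in each library, and Fgf17 ranged from 0.26 FPKM in Lgr5+ to 0.72 FPKM in Lgr5-. Of the 12 genes of a ridge list that includes these ligands and Fgf9, 4 were measured in each pair, namely Fgf9, Dlx3 (1.26 to 6.69 FPKM), Cd44 (1.58 to 2.93 FPKM) and Bambi (16.3 to 29.3 FPKM), and the rest, among them Sp6 and Sp8, stayed under 1 FPKM.

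Among endocrine FGFs, which act at a distance with Klotho co-receptors, Fgf21 reached 1.59 FPKM in Lgr5+ against 0.53 FPKM in Sox9+ and 0.42 FPKM in Lgr5-, within 2-fold on the scale used. Fgf15 and Fgf23 stayed at or below 0.12 FPKM, and the co-receptor genes Kl and Klb at or below 0.1 FPKM. Of the intracellular homologues, which are not secreted and bind ion channels, Fgf13 was the most abundant, at 9.41 FPKM in Sox9+, 7.07 FPKM in Lgr5+ and 5.54 FPKM in Lgr5-. Fgf12 stood at 3.24 FPKM in Sox9+, 0.78 FPKM in Lgr5+ and 2.38 FPKM in Lgr5-, and was 2.38-fold lower in Lgr5+ than in Sox9+. Fgf11 stayed between 0.54 and 0.68 FPKM, and Fgf14 at or below 0.45 FPKM.

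**Figure D1:**
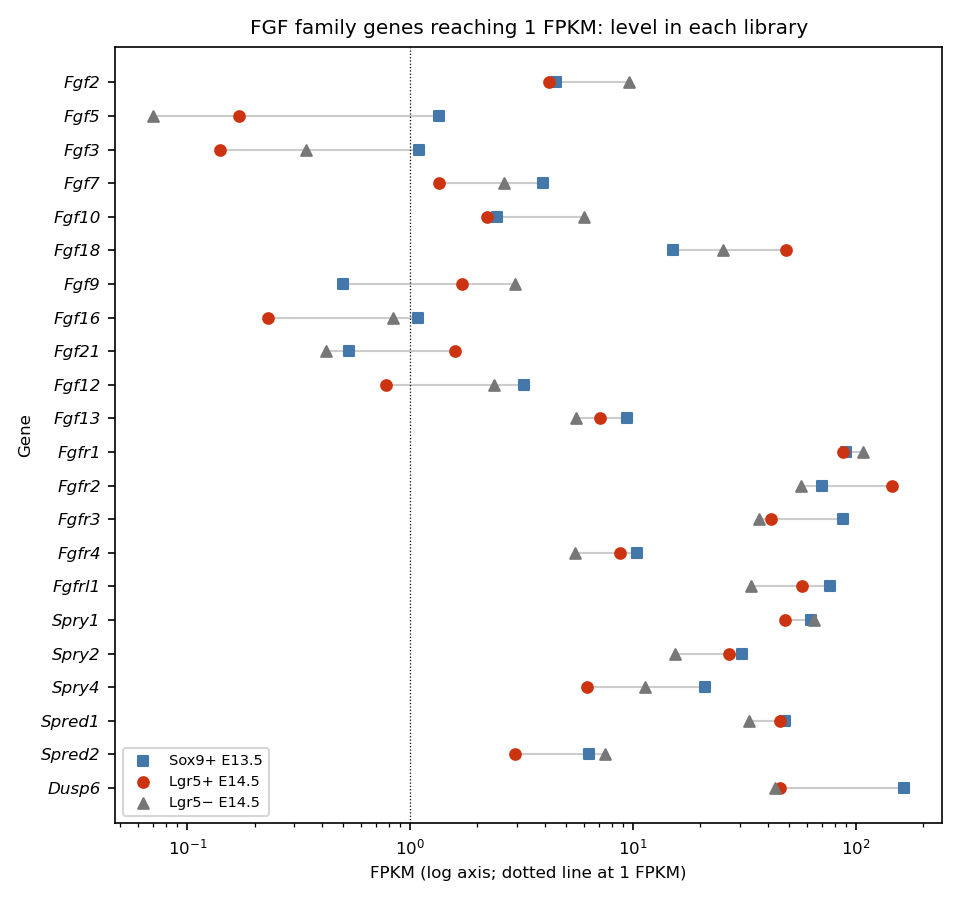
FPKM on a log axis of the 22 FGF family genes that reached 1 FPKM, with 1 point per library (squares Sox9+ E13.5, circles Lgr5+ E14.5, triangles Lgr5- E14.5), a grey line spanning the 3 values of a gene and a dotted line at 1 FPKM. Fgf18 and Fgfr2 were highest in Lgr5+, Dusp6 and Fgfr3 in Sox9+, and Fgf2 and Fgf10 in Lgr5-.

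The 4 receptors differed in which library was highest, and their summed FPKM was 258.5 in Sox9+, 282.7 in Lgr5+ and 206.5 in Lgr5-, against 31.9, 58.8 and 48.7 for the 15 paracrine ligands. Fgfr1, the receptor of undifferentiated limb mesenchyme (on the plus strand of chromosome 8, from 25518759 to 25575718), was nearly even, at 90.1 FPKM in Sox9+, 87 FPKM in Lgr5+ and 107.5 FPKM in Lgr5-. Fgfr2, a receptor of limb epithelium, early condensations and perichondrium (on the minus strand of chromosome 7, from 130162451 to 130266808), stood at 70.3 FPKM in Sox9+, 145.3 FPKM in Lgr5+ and 56.7 FPKM in Lgr5-. Its Lgr5+ value was 2.53-fold above Lgr5- and 2.05-fold above Sox9+, and the latter ratio dropped under 2-fold with upper quartile scaling (log2 ratio 0.96) and with median of ratios (0.97).

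Fgfr3, which restrains chondrocyte proliferation (on the plus strand of chromosome 5, from 33721724 to 33737068), showed a different order, at 87.7 FPKM in Sox9+, 41.7 FPKM in Lgr5+ and 36.8 FPKM in Lgr5-. It was 2.08-fold lower in Lgr5+ and 2.34-fold lower in Lgr5- than in Sox9+, and after rescaling to TPM the Lgr5+ ratio lay within 2-fold (log2 ratio −0.91). The summed cartilage genes given above were likewise highest in Sox9+. Of these 14, 9 were at least 2-fold lower in Lgr5+ and 13 in Lgr5- than in Sox9+, and none higher. Sox9, Sox5 and Sox6 were higher in Lgr5+ than in Sox9+, within 2-fold. Sox5 stood at 21.3, 35.1 and 10.0 FPKM and Sox6 at 30.3, 38.6 and 11.0 FPKM in Sox9+, Lgr5+ and Lgr5-. The sum of 10 genes of chondrocyte maturation was also highest in Sox9+, at 317.4 FPKM against 122.6 in Lgr5+ and 232.6 in Lgr5-. Of these 10, 8 were at least 2-fold lower in Lgr5+ and 5 in Lgr5- than in Sox9+. The part of cartilage content or maturation in the Fgfr3 values, or in those of Dusp6 below, was not tested. In the annotation, Fgfr3 shares 998 exonic bases with a transcript of unknown status on the opposite strand.

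Within each library the balance of the 4 receptors differed. Fgfr2 made up 51.4% of the summed receptor FPKM in Lgr5+, against 27.2% in Sox9+ and 27.5% in Lgr5-. Fgfr1 made up 52.1% in Lgr5-, 34.8% in Sox9+ and 30.8% in Lgr5+, and Fgfr3 33.9% in Sox9+, 14.7% in Lgr5+ and 17.8% in Lgr5-. The ratio of Fgfr2 to Fgfr3 was accordingly 3.49 in Lgr5+, 1.54 in Lgr5- and 0.802 in Sox9+. The values are per gene, so the epithelial and mesenchymal splice forms of Fgfr1, Fgfr2 and Fgfr3 could not be read separately.

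Epidermis also expresses Fgfr2, and 5 of 9 epidermal genes measured were 2-fold or more above Lgr5- in Lgr5+. Against Sox9+, 3 of 9 were at least 2-fold higher in Lgr5+ (Krt5, Krt15 and Krtdap, the first at 4.61 FPKM in Sox9+ and 12.6 in Lgr5+) and 2 lower (Krt8 and Krt18, the latter at 26.9 and 4.93 FPKM). The epithelial splicing factor gene Esrp1 was at 0.08, 0.48 and 0.02 FPKM in Sox9+, Lgr5+ and Lgr5-. Genes of perichondrium and bone, 10 in all, summed to 1342 FPKM in Sox9+, 1846 in Lgr5+ and 1794 in Lgr5-. Of 8 measured in Lgr5+ over Lgr5-, 1 was at least 2-fold higher and 2 lower. In Lgr5+ over Sox9+, 1 of 9 was higher and 4 lower. The part of epidermal or perichondrial RNA, or of the interzone, tendon, muscle and macrophage genes that were higher in Lgr5+, in the Fgfr2 values was not tested. The annotated exons of Fgfr2 share 314 bases with Ctbp2 (32.3, 26.8 and 25.3 FPKM in the same library order), so reads there are uncertain.

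Fgfr4, a receptor of muscle precursors (10.4, 8.7 and 5.45 FPKM in Sox9+, Lgr5+ and Lgr5-), was within 2-fold in each pair. Muscle genes summed to 30.1, 113.3 and 30.6 FPKM in the same library order, and their part in the Fgfr4 values was not tested. Fgfrl1, a receptor-like protein that binds FGFs but lacks the kinase domain, stood at 76 FPKM in Sox9+, 57.2 FPKM in Lgr5+ and 33.7 FPKM in Lgr5-. It was 2.22-fold lower in Lgr5- than in Sox9+ and within 2-fold in the other pairs.

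**Figure D2:**
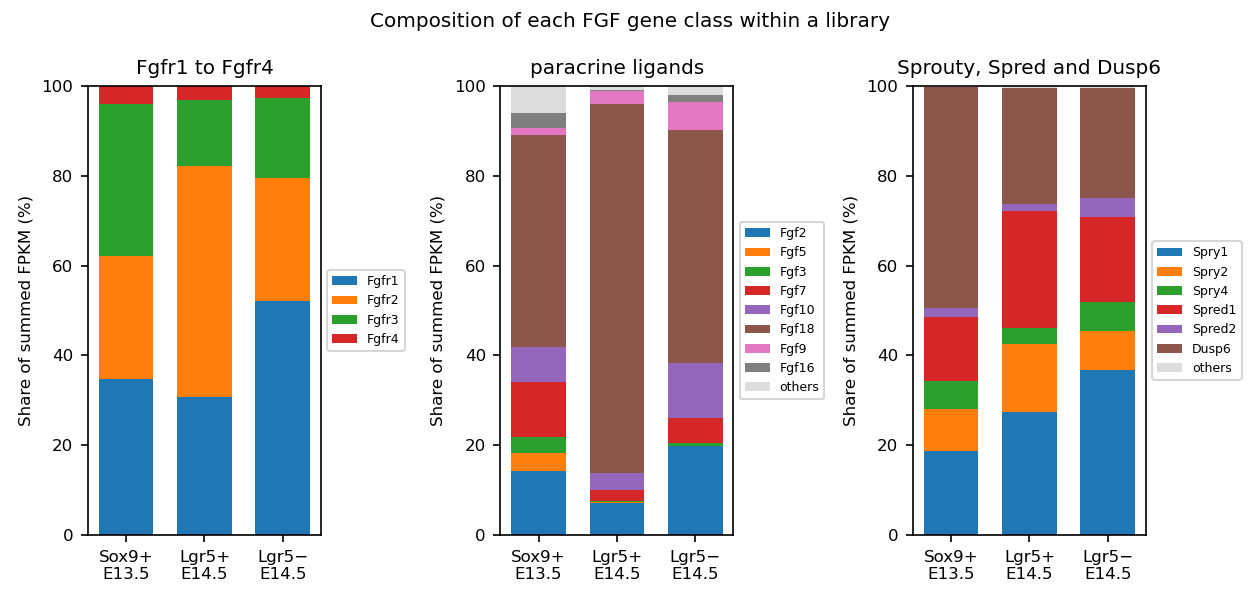
Stacked bars give the share (%) of summed FPKM held by each gene within the 4 receptors, the 15 paracrine ligands and the 8 Sprouty, Spred and Dusp6 genes, with 1 bar per library and grey for genes under 1 FPKM in each library. Fgfr2 holds 51.4% of receptor FPKM and Fgf18 82.2% of ligand FPKM in Lgr5+, and Dusp6 holds 49.3% of inhibitor FPKM in Sox9+.

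Among the feedback inhibitors, Dusp6 differed most between the Sox9+ library and the others (on the plus strand of chromosome 10, from 99263231 to 99267489). It stood at 164.5 FPKM in Sox9+, 45.4 FPKM in Lgr5+ and 43.3 FPKM in Lgr5-. It was 3.57-fold lower in Lgr5+ and 3.74-fold lower in Lgr5- than in Sox9+, and 0.793% and 0.921% of measured genes had more negative ratios in these comparisons. Between Lgr5+ and Lgr5- it was nearly equal, and the sign of that ratio changed with quantile and upper quartile scaling. Dusp6 held 49.3% of the summed FPKM of the 8 inhibitors in Sox9+, 25.8% in Lgr5+ and 24.6% in Lgr5-.

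The Sprouty genes differed in which library was lowest. Spry4 was lowest in Lgr5+, at 6.23 FPKM against 21 FPKM in Sox9+ and 11.3 FPKM in Lgr5-, which was 3.05-fold below Sox9+ and 1.71-fold below Lgr5-. Spry2 was lowest in Lgr5-, at 15.4 FPKM against 30.6 FPKM in Sox9+ and 26.9 FPKM in Lgr5+, and lay within 2-fold in each pair. Spry1, the most abundant Sprouty gene, was nearly even, at 62.8, 48 and 64.4 FPKM in Sox9+, Lgr5+ and Lgr5-. The ratio of Spry2 to Spry4 was therefore 4.31 in Lgr5+, 1.46 in Sox9+ and 1.36 in Lgr5-.

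Of the Spred genes, Spred1 stood at 47.9, 45.5 and 33.2 FPKM in Sox9+, Lgr5+ and Lgr5-, within 2-fold in each pair. Spred2 was lowest in Lgr5+, at 2.96 FPKM against 6.35 FPKM in Sox9+ and 7.5 FPKM in Lgr5-, and was 2.15-fold below Lgr5-. Among the inhibitors reaching 1 FPKM, Spred2, Spry4 and Spry1 were thus the ones lowest in Lgr5+ by FPKM, Spry1 by a smaller margin.

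Counted over all members, 19 were measured in the comparison of Lgr5+ with Lgr5-. Fgfr2 was at least 2-fold higher and Fgf2, Fgf10 and Spred2 at least 2-fold lower, which is 5.26% and 15.8% of the members measured. Of all 12438 measured genes, 3.64% were higher and 1.89% lower by that much, 5.53% in all. The median log2 ratio was 0.07 over the members and 0.08 over all genes. With so few members different, the counts describe these genes and no pattern of the family.

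In the comparison of Lgr5+ with Sox9+, 22 members were measured. Fgf18 and Fgfr2 were at least 2-fold higher and Fgf5, Fgf7, Fgf12, Fgfr3, Spry4 and Dusp6 at least 2-fold lower. That is 9.09% higher and 27.3% lower, against 4.33% and 3.96% (8.29% in all) of the 12492 genes measured, and the median was −0.37 over the members and 0.06 over all genes. Fgf3, Fgf5, Fgf12 and Fgf16 were measured here only through Sox9+, and Fgf9 and Fgf21 only through Lgr5+, which fixed the sign of their ratios. With a minimum of 10 FPKM, 2 of 11 members were higher and 3 lower, with a median of −0.24. The split also depended on scaling, with 4 members higher and 6 lower after rescaling to TPM, and 1 higher and 6 lower with upper quartile or median of ratios. Over all genes TPM gave 912 higher and 505 lower, against 541 and 495 with the deposited values.

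In the comparison of Lgr5- with Sox9+, 21 members were measured. Fgf9 and Fgf10 were at least 2-fold higher and Fgf5, Fgfr3, Fgfrl1 and Dusp6 at least 2-fold lower. That is 9.52% higher and 19% lower, against 3.08% and 4.94% (8.02% in all) of the 12482 genes measured, and the median was −0.45 over the members and −0.01 over all genes. Fgf3, Fgf5 and Fgf16 were measured here only through Sox9+, and Fgf9 only through Lgr5-, which fixed the sign of their ratios. With a minimum of 10 FPKM, none of 11 members was higher and 3 were lower, with a median of −0.83. TPM gave 646 genes higher and 617 lower in all, against 384 and 617 with the deposited values. Dusp6, Fgfr3 and Fgf5 appear in both comparisons with Sox9+, which share that library and so are not independent of each other.

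**Figure D3:**
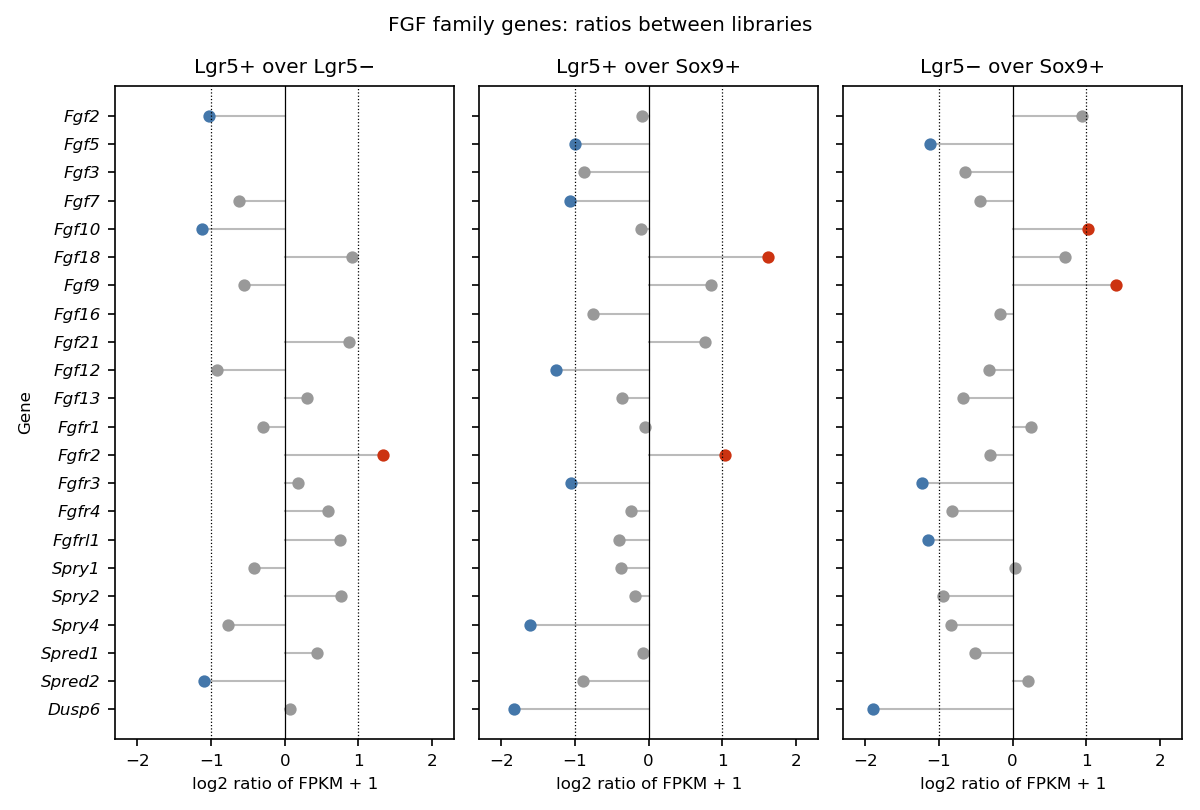
Log2 ratios of FPKM + 1 for the members measured in each of the 3 pairs of libraries, with dotted lines at 2-fold, red points at least 2-fold higher, blue points at least 2-fold lower and grey points in between. Dusp6 lies farthest to the left in both comparisons with Sox9+, and Fgfr2 farthest to the right in Lgr5+ over Lgr5-.

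Other genes of the pathway were read from 4 lists, whose counts stand beside the shares of all measured genes that were 2-fold higher and lower: 3.64% and 1.89% in Lgr5+ over Lgr5-, 4.33% and 3.96% in Lgr5+ over Sox9+, and 3.08% and 4.94% in Lgr5- over Sox9+. The list of receptor adaptors and the Ras/MAPK relay was flat, with 25 genes measured, none of them 2-fold different in any of the 3 pairs, and medians of 0.05, 0.17 and 0.03 for Lgr5+ over Lgr5-, Lgr5+ over Sox9+ and Lgr5- over Sox9+. Frs2, the docking protein of FGF receptors, was among them, at 11.7, 7.92 and 8.86 FPKM in Sox9+, Lgr5+ and Lgr5-.

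The enzymes that build and edit heparan sulfate held the largest ratios of the 4 lists in both comparisons of Lgr5+. In Lgr5+ over Lgr5-, 4 of its 18 measured genes were at least 2-fold higher and none lower, although the list median was 0.05. Hs3st3a1 and Hs3st3b1, sister 3-O-sulfotransferases that add a late sulfate to the chain, stood at 70.2 and 48.5 FPKM in Lgr5+, at 6.46 and 8.3 FPKM in Lgr5-, and at 9.01 and 12.6 FPKM in Sox9+. They were 9.54-fold and 5.32-fold higher in Lgr5+ than in Lgr5-, and 7.11-fold and 3.63-fold higher than in Sox9+. These paralogs share similar coding sequence, so how reads were divided between them is uncertain, and both were higher. Hs3st3a1 also shares 1295 annotated exonic bases with F930015N05Rik on the opposite strand (0.46, 1.44 and 0.47 FPKM in Sox9+, Lgr5+ and Lgr5-). Reads from those bases cannot be assigned to either gene.

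Sulf1, an extracellular sulfatase that trims 6-O-sulfates needed for FGF binding, stood at 90.2 FPKM in Sox9+, 229 FPKM in Lgr5+ and 79 FPKM in Lgr5-, which was 2.87-fold above Lgr5- and 2.52-fold above Sox9+. The fourth gene, Sulf2, named after its values were seen, was at 140.3, 280.1 and 114.6 FPKM in Sox9+, Lgr5+ and Lgr5-, 2.43-fold above Lgr5- and 1.99-fold above Sox9+. The chain-building enzymes Ext1 (36.6, 32.6 and 32.2 FPKM) and Ext2 (54.2, 59 and 54.2 FPKM) were nearly even. In Lgr5+ over Sox9+, 3 of 17 measured genes were at least 2-fold higher and none lower, with a median of 0.01. In Lgr5- over Sox9+ the count was 1 of 18, Hs3st2, which was listed at 0 in Sox9+ and stood at 1.07 FPKM in Lgr5-, and the median was −0.05.

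Cell-surface cofactors showed no common direction. Of 18 measured, none was at least 2-fold higher and 1 lower in Lgr5+ than in Lgr5-, 1 higher and 2 lower than in Sox9+, and 3 were higher and 1 lower in Lgr5- than in Sox9+, with medians of −0.09, −0.01 and 0.13. Il17rd, a membrane inhibitor of FGF signalling also called Sef, stood at 2.63 FPKM in Sox9+, 2.76 FPKM in Lgr5+ and 7.89 FPKM in Lgr5-, and was 2.36-fold lower in Lgr5+ than in Lgr5-. Cdh2, the adhesion protein N-cadherin, stood at 8.47, 13.2 and 21.4 FPKM and was 2.36-fold higher in Lgr5- than in Sox9+. The secreted FGF-binding protein gene Fgfbp1 was at 0.4 FPKM in Sox9+, 2.66 FPKM in Lgr5+ and 1.55 FPKM in Lgr5-, and was 2.61-fold higher in Lgr5+ than in Sox9+. Hspg2, the matrix proteoglycan perlecan (7.84, 2.28 and 3.74 FPKM), and Flrt3, a membrane partner of FGF receptors (21.6, 8.34 and 9.9 FPKM), were 2.7-fold and 2.42-fold lower in Lgr5+ than in Sox9+.

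Genes that ERK signalling can induce, other than the members, were compared next. In Lgr5+ over Sox9+, 8 of 24 measured were at least 2-fold lower and none higher, with a median of −0.41. In Lgr5- over Sox9+, 6 were lower and 1 higher, with a median of −0.56. In Lgr5+ over Lgr5-, 3 of 23 were higher and 1 lower, with a median of −0.17. The ERK phosphatase gene Dusp5 stood at 31.4 FPKM in Sox9+, 7.03 FPKM in Lgr5+ and 5.89 FPKM in Lgr5-, 4.04-fold and 4.71-fold below Sox9+. The growth regulator Myc (172.1, 55.7 and 29.3 FPKM) and Phlda1 (159.4, 49.5 and 28.8 FPKM) were 5.71-fold and 5.39-fold lower in Lgr5- than in Sox9+.

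The ETS factor genes Etv4 and Etv5, classical FGF targets in the limb, were highest in Sox9+ like Dusp6 but differed less. Etv4 stood at 3.97, 3.47 and 3.61 FPKM in Sox9+, Lgr5+ and Lgr5-, and Etv5 at 31.9, 18.9 and 22.5 FPKM, both within 2-fold in each pair. Etv1, also on the list, went the other way and was lowest in Sox9+, at 5.12, 5.71 and 6.53 FPKM, again within 2-fold. The limb homeobox gene Msx1 had the opposite order to Dusp6, at 37.8, 67.3 and 116.9 FPKM, 3.04-fold higher in Lgr5- than in Sox9+. Shisa3, of a family that retains FGF and Wnt receptors inside the cell, stood at 4.3, 6.43 and 0.78 FPKM and was 4.17-fold higher in Lgr5+ than in Lgr5-. The stress-induced phosphatase gene Dusp1, at 360.1, 591.4 and 215.7 FPKM, was 2.73-fold higher in Lgr5+ than in Lgr5-.

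A list of 14 genes induced by tissue dissociation followed the same order in sum as the response genes, highest in Sox9+. The response genes summed to 4255, 3247 and 3238 FPKM in Sox9+, Lgr5+ and Lgr5-. These sums are not independent, because 4 genes (Fos, Egr1, Ier2 and Dusp1) are in both lists. In Sox9+ the 4 stood at 893.1, 1221, 808.4 and 360.1 FPKM. The dissociation list summed to 7885 FPKM in Sox9+, 4733 in Lgr5+ and 4523 in Lgr5-. Of its 14 genes, 7 were at least 2-fold lower in Lgr5+ and 5 in Lgr5- than in Sox9+, and none higher in either. Its heat shock gene Hspa1a stood at 1116 FPKM in Sox9+, 20.2 FPKM in Lgr5+ and 16.1 FPKM in Lgr5-. Fos, by contrast, was at 893.1, 589.8 and 890.8 FPKM. The part of dissociation or heat stress in the Dusp6, Spry4 and Dusp5 values was not tested.

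**Figure D4:**
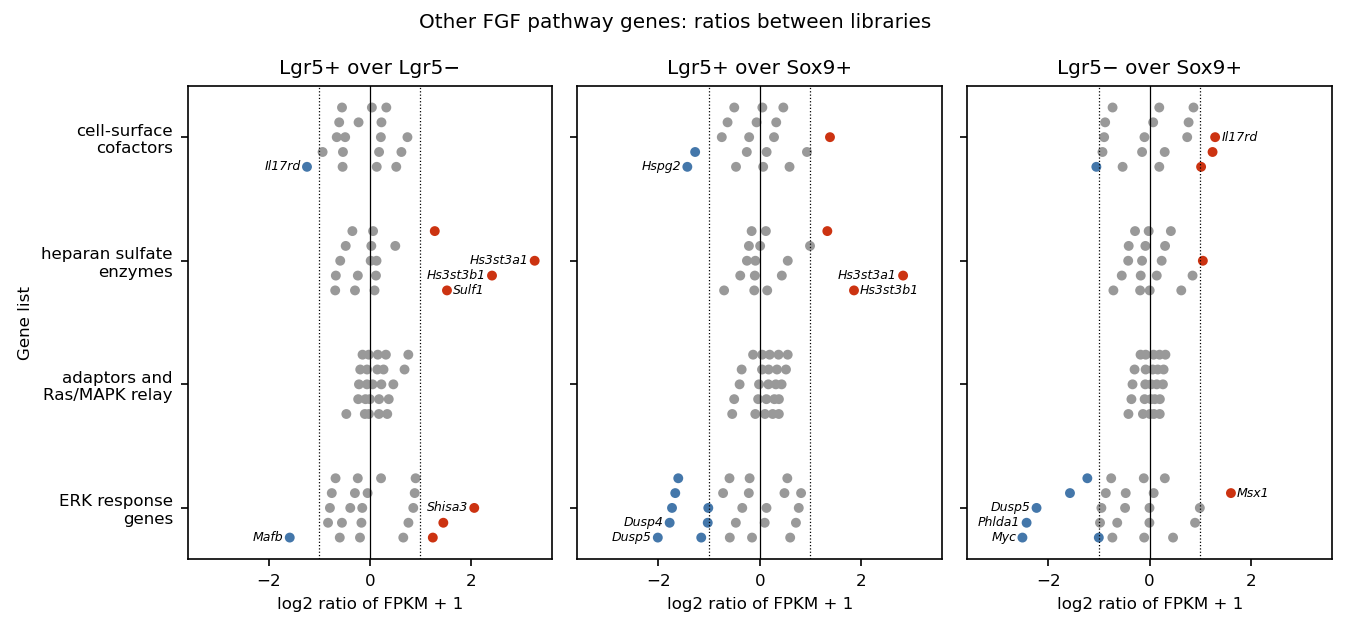
Log2 ratios of FPKM + 1 of measured genes in 4 lists of other FGF pathway genes (rows, points spread vertically for legibility) in the 3 pairs of libraries, with dotted lines at 2-fold, red points higher and blue points lower by at least that much. Points of the adaptor and Ras/MAPK list lie between the dotted lines in each pair, and Hs3st3a1 lies farthest to the right in both comparisons of Lgr5+.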

How the data were processed

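RNA was measured in 3 libraries, 1 per population, from digits digested for 20 min and sorted for GFP. Per the labels' protocols, 10 ng of RNA went into each SMARTer library. This chemistry starts from poly(A) tails and keeps no strand. The submitters' processing notes name HISAT2 and the builds mm10 and GRCm38. The quantifier and its annotation were not given in the sources used here. In FPKM, the unit the authors deposited, each file holds 1 value per gene symbol with 2 decimals, and values are shares of a library. Whether low values fall on whole fragments was examined in 2677 genes with a single transcript. The scores of 0.102 to 0.142 were near those with lengths shuffled (0.126 to 0.186) and far from simulated fragments (0.903 to 0.909), so depth is unknown and no counting interval is given.

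Log2 ratios of FPKM + 1 were computed over all genes in Python 3.11.15 with pandas 2.3.3 and NumPy 2.4.6, with the minimum of 1 FPKM and the threshold of 2-fold. The code was tried on simulated data, with changes larger than the threshold, in genes well above the minimum and at an assumed depth. That trial does not cover changes near 2-fold, genes near 1 FPKM or the spread between replicates. Plots used matplotlib 3.10.9. Gene spans are from RefSeq (GRCm38.p6) and exon overlaps from GENCODE M21. Members reaching 1 FPKM are named with values. Of each pathway list, the genes with the 3 largest ratios in each direction among the 2-fold different are named, plus Etv4, Etv5 and Il17rd. Sulf2, Hs3st2, Etv1, Frs2, Ext1, Ext2 and the single marker genes were chosen after their values were seen. Hras had no row. The members and lists were chosen with earlier results of these data known. The 7 alternatives were a pseudocount of 0.1, no minimum, a minimum of 10 FPKM, and rescaling to TPM, upper quartile, median of ratios or quantiles.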

Additional observations from a re-analysis of the deposited data

How the results depend on the processing

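Of 404 recomputed member ratios, 386 kept their side of the 2-fold threshold, 15 passed it where they had not, and 3 dropped under it. The 386 include 62 ratios with no minimum and 32 with the minimum of 10 FPKM. Those could not change, because a minimum only decides which genes are measured. No ratio of at least 2-fold changed sign, while 6 within 2-fold did, namely Dusp6 in Lgr5+ over Lgr5- (upper quartile and quantile) and Fgf2, Fgf10, Fgfr1 and Spred1 in Lgr5+ over Sox9+ (TPM). The 3 that dropped under the threshold were Fgfr3 in Lgr5+ over Sox9+ with TPM, and Fgfr2 in the same pair with upper quartile and with median of ratios. The 15 that passed it did so with the pseudocount of 0.1 or with TPM. They were ratios of Fgf2, Fgf3, Fgf9, Fgf12, Fgf16, Fgf21 and Spred2. With a minimum of 10 FPKM the members at least 2-fold different numbered 1 in Lgr5+ over Lgr5- (4 with the minimum of 1 FPKM), 5 in Lgr5+ over Sox9+ (8) and 3 in Lgr5- over Sox9+ (6), because fewer members were then measured. With a pseudocount of 0.1 they numbered 13 in Lgr5+ over Sox9+. Cell-surface cofactors different in Lgr5+ over Lgr5- numbered 2 in place of 1 with the pseudocount of 0.1, with TPM and with upper quartile, and 0 with the 10 FPKM minimum, which left 1 in place of 3 in Lgr5+ over Sox9+. Heparan sulfate genes different in Lgr5- over Sox9+ numbered 2 with TPM and 0 with the 10 FPKM minimum, in place of 1. TPM shifted the median over all genes by 0.15 in Lgr5+ over Sox9+ and 0.11 in Lgr5- over Sox9+, and upper quartile by −0.10 in Lgr5+ over Lgr5-. No paired analysis was possible because each group had 1 library and the labels number no replicates. No library could be left out for the same reason, and values under 1 FPKM are limited by the unknown depth.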

Other observations

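The Dusp family as a whole, taken by symbol after the values of Dusp6 were seen, held both higher and lower genes. Of 24 Dusp genes listed, Dusp6 included, 20 were measured in each pair. In Lgr5+ over Sox9+, 5 were at least 2-fold lower, namely Dusp4, Dusp5, Dusp6, Dusp9 and Dusp10, and 1 was higher, Dusp26, beside 3.96% and 4.33% of all measured genes. In Lgr5- over Sox9+, 5 were lower (Dusp2, Dusp5, Dusp6, Dusp8 and Dusp14) and none higher, beside 4.94% and 3.08%. In Lgr5+ over Lgr5-, 4 were higher (Dusp1, Dusp8, Dusp14 and Dusp26) and none lower, beside 3.64% and 1.89%. Dusp4 stood at 18.9, 4.8 and 9.28 FPKM in Sox9+, Lgr5+ and Lgr5-, Dusp9 at 16.2, 4.19 and 7.74 FPKM, and Dusp10 at 9.04, 3.18 and 5.15 FPKM. Dusp7, which like Dusp6 and Dusp9 is a cytoplasmic ERK phosphatase, had the opposite order, at 38.9, 59.6 and 73.3 FPKM, within 2-fold in each pair. Dusp14 separated the E14.5 libraries, at 44.4 FPKM in Lgr5+ and 39 FPKM in Sox9+ against 9.16 FPKM in Lgr5-, and Dusp8 stood at 15.9, 9.48 and 2.84 FPKM in Sox9+, Lgr5+ and Lgr5-.

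The heparan sulfate 3-O-sulfotransferase family, also taken whole after its values were seen, held 7 listed genes. Apart from Hs3st3a1 and Hs3st3b1, none exceeded 5.55 FPKM in any library. Hs3st6 had the opposite order to these, at 1 FPKM in Sox9+, 0.43 FPKM in Lgr5+ and 2.8 FPKM in Lgr5-.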
